A study of Canis lupus familiaris with 3 samples.

Results

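The genes described here are 10 genes of the amino acid response and of serine and folate metabolism, namely ATF4, CEBPG, ASNS, PSAT1, CTH, PCK2, MTHFD2, SHMT2, SLC1A4 and SLC1A5. They were chosen by symbol, with earlier results of these same arrays known, so their ratios are given as a description and support no test. All 10 were found, as 26 of the 27648 spots on the array, 12 of the 7528 clones with a single gene symbol and 10 of the 6043 genes so annotated. Of the 26 spots 25 had a value on every array, and each of the 10 genes kept at least 1 such spot. All 10 symbols also stand in the dog gene table, so the human clones have a dog gene of the same name.

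The RNA came from MDCK, a dog kidney line of epithelial cells. MDCK cells transfected with E47, a helix-loop-helix transcription factor that represses the E-cadherin gene, were compared with MDCK-CMV control cells on 3 two-channel arrays of human cDNA clones. Both kinds of cell were grown in the same serum-containing medium, and amplified RNA was labelled. Extraction 1 of E47 cells was in Cy5 on its single array, while extraction 2 was measured by a dye swap, with an array for each dye. Both arrays of the swap hold the same RNA and were averaged, so n = 2 extractions. The labels do not say whether the extractions came from separate cultures or from 1 clone of transfectants, so the spread between them may be technical, and the spread of the control RNA is not seen at all.

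ATF4 is a basic leucine zipper transcription factor whose protein accumulates when amino acids are scarce or when the endoplasmic reticulum is stressed, because phosphorylation of the initiation factor eIF2 slows general translation while favouring that of the ATF4 message. With C/EBP family partners it activates genes that make or import amino acids, charge transfer RNAs and feed carbon units from serine into folate in the mitochondrion. The arrays measured RNA ratios and no protein.

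Every ratio below is a log2 ratio of E47 over control, and a negative value means less RNA signal in E47 cells. This direction is likely rather than stated: the labels list E47 cells as the first channel on each array, and CDH1, the gene of E-cadherin, which the series title names as repressed, had −3.52, −3.83 and −3.47. Here and below, 3 values in a row are extraction 1 in Cy5, extraction 2 in Cy3 and extraction 2 in Cy5. With the opposite direction every "lower" would be "higher". The labels and files name no base of the logarithm, which was read as 2. A ratio shows a difference between E47 and control cells and no level, so the epithelial identity of the cells could not be checked by level. In a limma fit across all features, the 6 measured epithelial markers fell and the 4 measured mesenchymal markers rose in E47 cells. Their median log2 ratios were −1.85 and 1.92. CDH1, from which the direction was read, is among the 6 epithelial markers, so its own fall is no separate check. Of all named genes, 3.85% fell and 5.34% rose in that fit. Among the mesenchymal markers, COL1A2 had a mean of 0.68 from clones of opposite sign, so its rise depended on the clone read. Fewer cells of a type and less RNA per cell cannot be told apart in such bulk RNA.

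Each of the 10 genes had a log2 ratio below 0 on all 3 arrays. Among all 5508 named genes with complete values, 32.8% did so. The gene means ran from −1.71 to −0.17, with a median of −1.03, against a median of −0.017 over all named genes. The median of the 10 genes was −0.99, −1.05 and −1.16 on the 3 arrays. ATF4, ASNS, PSAT1, CTH and MTHFD2, which are 5 of the 10, lay at or below −1 on every array, against 0.853% of all named genes. In the limma fit 7 of the 10 had an adjusted p under 0.05 and a lower ratio, against 3.85% of all named genes, or 9.19% counted in either direction. Because the genes were chosen with this contrast known, these counts describe the choice.

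**Figure D1:**
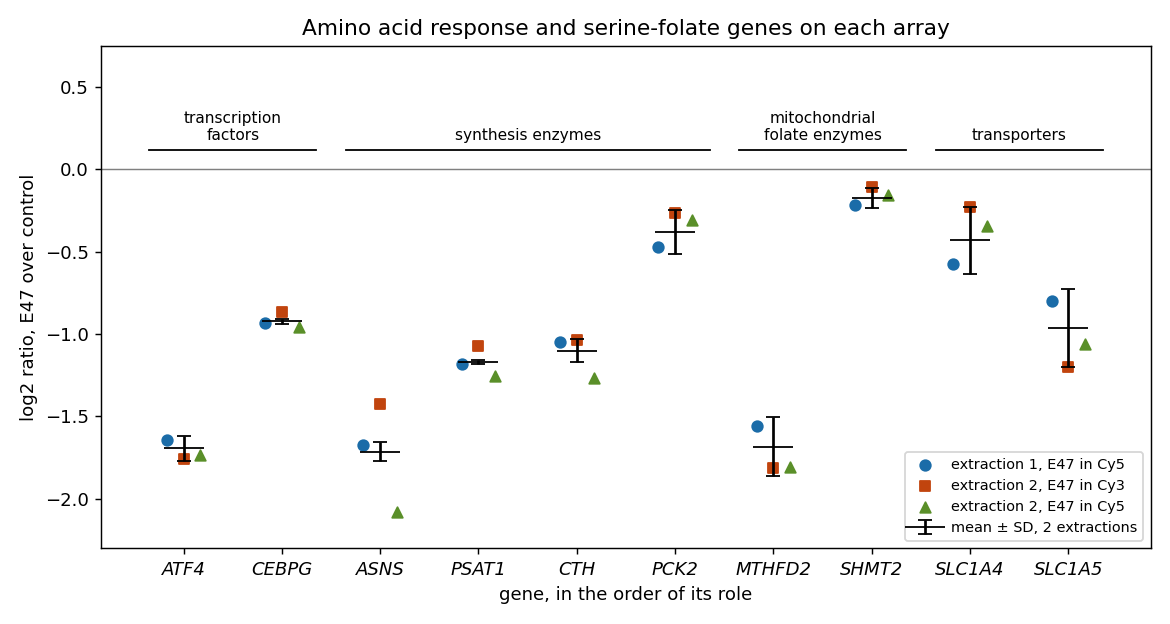
Log2 ratio of E47 over control (vertical axis) for the 10 genes, ordered by role along the horizontal axis. Each symbol is 1 array and the black bar is the mean ± SD over 2 extractions, with the dye swap averaged first. All symbols lie below 0, with ATF4, ASNS and MTHFD2 between −1.42 and −2.08 and SHMT2 between −0.11 and −0.22.

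The transcription factors come first. ATF4, read from 1 clone printed as 2 neighbouring spots, had log2 ratios of −1.64, −1.76 and −1.73. The arrays lay within 0.12 of each other, and the mean was −1.69 ± 0.07 (SD, n = 2 extractions), or 3.23-fold lower in E47 cells. It ranked as the 28th lowest of 5508 named genes by mean, in the lowest 0.508%.

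CEBPG, a short C/EBP family member that binds DNA as a dimer with ATF4 and other zipper proteins, had log2 ratios of −0.93, −0.87 and −0.96. Its mean of −0.92 ± 0.01 (SD, n = 2 extractions) is 1.90-fold lower in E47 cells. The difference of ATF4 minus CEBPG was −0.71, −0.89 and −0.78 on the 3 arrays, so ATF4 was the lower of the pair on each array.

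CEBPG was the only one of the 10 genes printed at 3 sites of the array, which shows how far the reading depends on the clone and its place. Clone 1 (site 1) gave −0.85, −0.58 and −0.68. Clone 2 gave −0.88, −0.83 and −0.94 at site 2. The same clone 2 gave −1.06, −1.20 and −1.25 at site 3. The difference of site 3 minus site 2 was −0.18, −0.37 and −0.31, although both held the same clone. Over all 775 clones printed at 2 separate sites, the median size of such a difference was 0.171, 0.119 and 0.152 on the 3 arrays. The SD of 0.01 given for CEBPG therefore leaves out a spread between its sites that is larger.

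**Figure D2:**
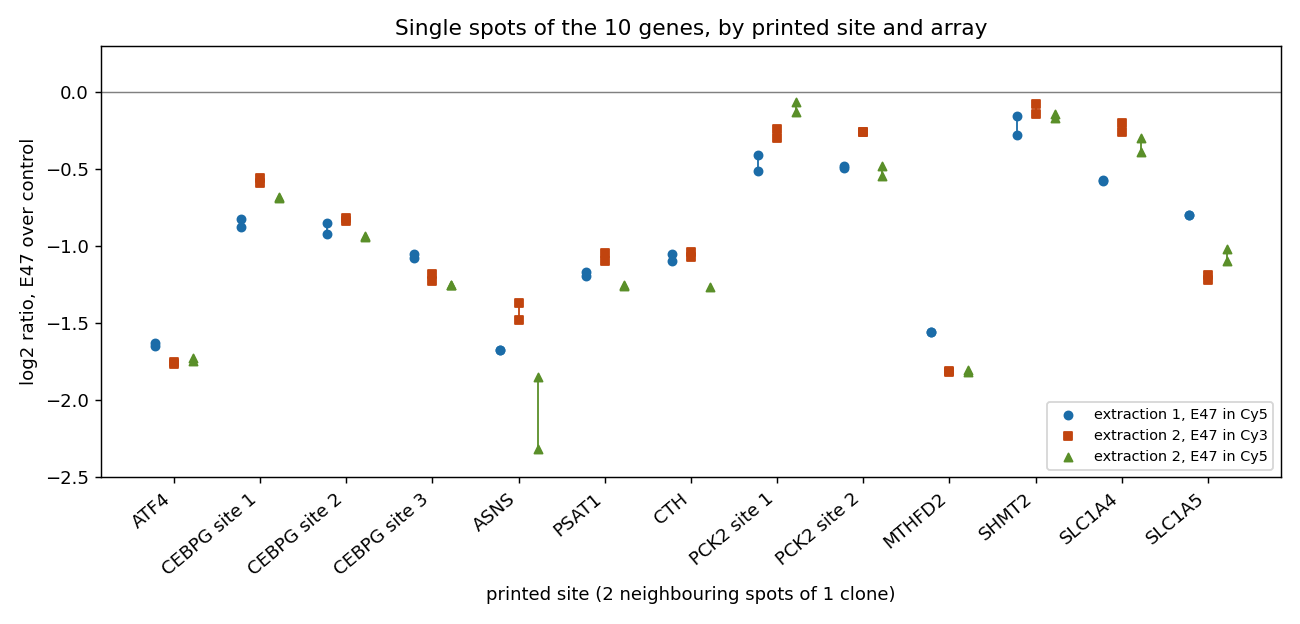
Log2 ratio of E47 over control (vertical axis) of every single spot of the 10 genes, by printed site (horizontal axis) and array (symbol). Lines join the 2 neighbouring spots of a clone. CEBPG sites 2 and 3 hold the same clone, PCK2 sites 1 and 2 hold different clones, and the ASNS pair on the Cy5 array of extraction 2 is the widest pair drawn.

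Of the synthesis enzymes, ASNS had the lowest mean of the 10 genes. It makes asparagine from aspartate and glutamine and is a textbook target of ATF4. Its log2 ratios were −1.67, −1.42 and −2.08, the widest range over arrays among the 10, at 0.66. All of that range lay inside the dye swap, where the Cy5 value was lower than the Cy3 value. The mean was −1.71 ± 0.06 (SD, n = 2 extractions), 3.28-fold lower in E47 cells. This SD is small because averaging the dye swap hides the difference between its arrays. The neighbouring ASNS spots gave −1.85 and −2.31 on the Cy5 array of extraction 2, a gap of 0.461, against a median gap of 0.051 over 7058 such pairs on that array.

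PSAT1, the aminotransferase of serine synthesis from glycolytic carbon, had log2 ratios of −1.18, −1.07 and −1.26. The mean was −1.17 ± 0.01 (SD, n = 2 extractions), 2.25-fold lower in E47 cells. The other enzymes of that short pathway, PHGDH and PSPH, were not analysed here.

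CTH, which releases cysteine from cystathionine at the end of transsulfuration, had log2 ratios of −1.05, −1.04 and −1.27. The mean was −1.10 ± 0.07 (SD, n = 2 extractions), 2.14-fold lower in E47 cells. It rests on 1 spot, because the neighbouring spot of the clone had no value on the Cy5 array of extraction 2. That spot gave −1.09 and −1.07 on the other arrays, close to the −1.05 and −1.04 of the spot that was used.

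PCK2, the mitochondrial phosphoenolpyruvate carboxykinase, was much nearer to 0. It had log2 ratios of −0.47, −0.26 and −0.30 and a mean of −0.38 ± 0.13 (SD, n = 2 extractions), 1.30-fold lower in E47 cells. Of all named genes, 13.4% had a mean as low or lower. Its clones differed on 1 array: they gave −0.46 and −0.49 on extraction 1 and −0.27 and −0.26 in Cy3, but −0.10 and −0.51 in Cy5, for site 1 and site 2. Over 883 genes with 2 clones, the median size of the difference between clones was 0.257 on that Cy5 array, and for PCK2 it was 0.417.

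The mitochondrial folate enzymes were far apart from each other. MTHFD2, a dehydrogenase and cyclohydrolase that carries folate-bound carbon towards formate, had log2 ratios of −1.56, −1.81 and −1.81. Its mean was −1.68 ± 0.18 (SD, n = 2 extractions), 3.21-fold lower in E47 cells, and the Cy3 and Cy5 values of the dye swap differed by 0.0041. SHMT2, which passes a carbon unit from serine to folate and so precedes MTHFD2 in the same route, had log2 ratios of −0.22, −0.11 and −0.15. Its mean was −0.17 ± 0.06 (SD, n = 2 extractions), 1.13-fold lower in E47 cells, and 28.8% of named genes had a mean as low or lower. The difference of MTHFD2 minus SHMT2 was −1.34, −1.70 and −1.65 on the 3 arrays. Each enzyme was read from 1 clone, so this difference was not checked with a further clone.

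The transporters also differed in size. SLC1A5, a neutral amino acid exchanger of the cell surface and a main importer of glutamine, had log2 ratios of −0.80, −1.20 and −1.06. Its mean was −0.96 ± 0.24 (SD, n = 2 extractions), 1.95-fold lower in E47 cells, with the largest SD of the 10 genes. SLC1A4, its close relative, which exchanges serine, alanine, cysteine and threonine, had log2 ratios of −0.58, −0.23 and −0.34. Its mean was −0.43 ± 0.20 (SD, n = 2 extractions), 1.35-fold lower in E47 cells. The difference of SLC1A5 minus SLC1A4 was −0.22, −0.97 and −0.71, so the gap on extraction 1 was no larger than the SD of SLC1A5. The extractions moved them in opposite ways, SLC1A5 being lower in extraction 2 and SLC1A4 lower in extraction 1. Since human clones were hybridised with dog RNA, close relatives such as these may not be fully separated.

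In the order of their means, neighbouring genes mostly overlapped. ASNS, ATF4 and MTHFD2 came lowest, and their array values overlapped. PSAT1, CTH, SLC1A5 and CEBPG came next, each overlapping its neighbour in the order. SLC1A4 and PCK2 overlapped above them, and by gene means SHMT2 lay above both on every array. On the Cy5 array of extraction 2, though, site 1 of PCK2, at −0.10, lay above SHMT2, at −0.15. The steps without overlap of gene means were 0.51 between MTHFD2 and PSAT1, 0.49 between CEBPG and SLC1A4 and 0.20 between PCK2 and SHMT2. The roles were mixed along this order, with a factor, a synthesis enzyme and a folate enzyme at its low end.

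The spread between arrays was set beside that of all genes. The size of the difference between extractions had a median of 0.103 among them, against 0.128 over all named genes, and reached 0.333 in SLC1A5. The size of the difference between Cy5 and Cy3 in the dye swap had a median of 0.102, against 0.167 over all named genes, and reached 0.659 in ASNS. The arrays correlated positively over 23275 complete spots, with Pearson r of 0.613 between extraction 1 and the Cy3 array, 0.769 between extraction 1 and the Cy5 array of extraction 2, and 0.671 within the dye swap. The swapped array therefore ran in the same direction as the others as deposited.

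**Figure D3:**
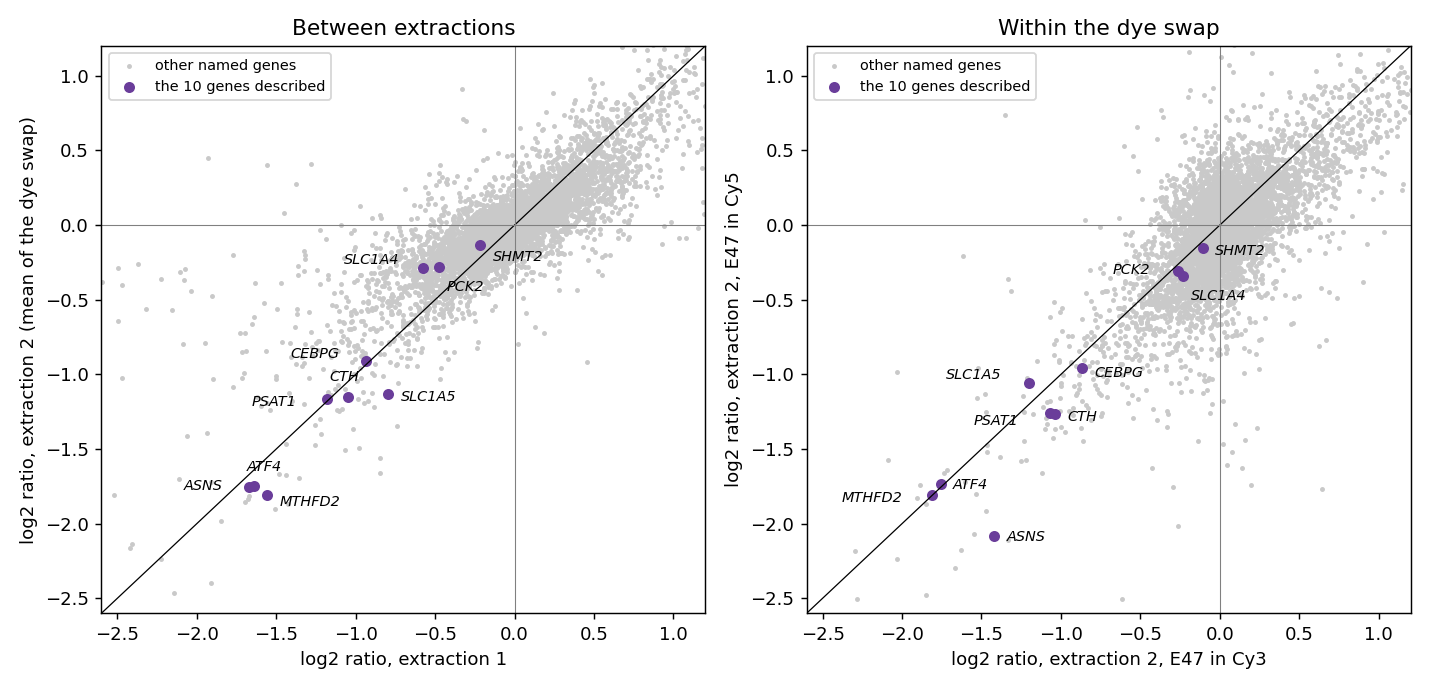
Left, log2 ratio in extraction 1 (horizontal) against extraction 2, averaged over the dye swap (vertical). Right, the Cy3 array (horizontal) against the Cy5 array (vertical) of extraction 2. Purple points are the 10 genes, grey points the other named genes, and the black line marks equal values. The axes run from −2.6 to 1.2, which leaves 5363 and 5374 of 5508 named genes inside the 2 panels. ASNS lies below the line on the right, and SLC1A5 lies below it on the left.

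The genes with array values most like those of ATF4 were sought by Euclidean distance over the 3 arrays. MTHFD2 was the nearest of all named genes, at a distance of 0.126. Outside the 10 genes, the 5 nearest were PLSCR1 at 0.135, DPP4 at 0.170, AQP3 at 0.226, FXYD3 at 0.279 and LRATD2 at 0.283. The mean of PLSCR1, −1.74, was −2.09 with the median over its spots and −1.57 with all spots. Its place therefore may depend on how its spots are combined. AQP3 is a water and glycerol channel and DPP4 a cell surface peptidase. ASNS came 12th, at 0.484, with Cy3 and Cy5 values on either side of those of ATF4. With 3 arrays of 1 contrast, this distance finds genes with a similar ratio and no more.

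The wider pathway was examined through 8 lists of textbook genes without the 10. These lists too were chosen with earlier results of these arrays known. Their counts therefore describe the choice and are no separate support for a change of the pathway. Of 248 genes listed, 106 had values on all arrays. In the limma fit 12 of the 106 (11.3%) fell and 3 (2.83%) rose in E47 cells, against 3.85% lower and 5.34% higher among all named genes. Their median log2 ratio was −0.11, against −0.017 for all named genes. All 15 kept 1 sign over the 3 arrays, but they were called from these same arrays, so this is no separate check. At an unadjusted p under 0.05 in limma, 35 of the 106 were lower and 19 higher, against 18.2% lower and 17.4% higher among all named genes. The calls depended on the dye swap. With the Cy3 array alone for extraction 2, HERPUD1 was the only one of the 15 to pass and 1.98% of all named genes passed. With the Cy5 array alone 26 of the 106 passed, 20 lower and 6 higher, against 16.7% of all named genes, 8.55% lower and 8.13% higher.

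Among 19 measured ATF4 targets and stress genes, 4 fell, 2 rose and 13 did not pass, with a median of −0.30. Over all named genes 3.85% fell and 5.34% rose. In limma 9 of the 19 were lower and 3 higher at an unadjusted p under 0.05, against 18.2% and 17.4% of all named genes. HERPUD1, a membrane protein of the endoplasmic reticulum that takes part in degradation of misfolded proteins, had log2 ratios of −2.41, −2.03 and −2.23 and a mean of −2.27 ± 0.11 (moderated SE, n = 2 extractions, as for the means of single genes that follow, adjusted p = 0.0194 in limma). That was lower than any of the 10 genes. PPP1R15A, the stress-induced subunit that directs a phosphatase to eIF2, had −1.41, −0.58 and −1.19 (mean −1.15 ± 0.16, adjusted p = 0.0416 in limma), with its clones at −1.59 and −0.70. DDIT4, an inhibitor of growth signalling through mTOR, had −1.27, −0.84 and −0.79 (mean −1.04 ± 0.14, adjusted p = 0.0416 in limma).

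ATF3, a zipper factor induced by ATF4, had a mean log2 ratio of −0.93 ± 0.08 over 2 clones at −0.98 and −0.91, with an adjusted p of 0.0241 in limma. The genes that rose were BCAT1, the cytosolic branched-chain aminotransferase, at 1.85, 1.18 and 0.99 (mean 1.47 ± 0.22, adjusted p = 0.0458 in limma), and VLDLR, a lipoprotein receptor, at 0.81, 1.04 and 0.34 (mean 0.75 ± 0.09, adjusted p = 0.0334 in limma). Neither passed when extraction 2 was read from the Cy3 array alone or from the Cy5 array alone, or with a dye term in the fit. BCAT1 also did not pass with robust eBayes (adjusted p = 0.0570 in limma) or with centred arrays (adjusted p = 0.0502 in limma). The members of this list thus passed in both directions.

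Upstream of ATF4, 16 genes of eIF2 and its kinases and phosphatases were measured, with a median log2 ratio of −0.01. Of these, 2 fell, none rose and 14 did not pass, against 3.85% lower and 5.34% higher among all named genes. At an unadjusted p under 0.05 in limma, 2 of the 16 were lower and 4 higher, against 18.2% and 17.4% of all named genes. Those that fell were PPP1R15A, given above, and PPP1R15B, the constitutive phosphatase subunit, which had −0.73, −0.57 and −0.61 (mean −0.66 ± 0.09, adjusted p = 0.0412 in limma). The clones of PPP1R15B were at −1.15 and −0.18, and with the median over its spots it did not pass (adjusted p = 0.0534 in limma). Of the eIF2 kinases only EIF2AK2, the kinase that senses double-stranded RNA, was measured, at −0.08, 0.03 and 0.05, on both sides of 0.

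Of 21 other measured zipper factors, of the ATF, CREB, AP-1 and related kinds, 3 fell, none rose and 18 did not pass. The shares of all named genes were 3.85% lower and 5.34% higher. The median log2 ratio of the 21 was −0.20. At an unadjusted p under 0.05 in limma, 8 were lower and 4 higher, against 18.2% and 17.4% of all named genes. The list also named further C/EBP genes, which were not analysed here. Besides ATF3, those that fell were FOS, at −1.04, −0.58 and −0.81 (mean −0.87 ± 0.12, adjusted p = 0.0429 in limma), and JUNB, at −0.59, −0.96 and −0.74 (mean −0.72 ± 0.11, adjusted p = 0.0466 in limma). Both are immediate early genes of growth factor signalling. The clones of FOS were at −1.33 and −0.41. JUNB did not pass with centred arrays (adjusted p = 0.0507 in limma) or with scaled arrays (adjusted p = 0.0782 in limma). ATF5, a further factor controlled through eIF2, had −0.54, −0.33 and −0.54 and did not pass, with an adjusted p of 0.0629 in limma. It was chosen after its values were seen.

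Among 13 other measured serine, glycine and folate enzymes, none fell, 1 rose and 12 did not pass, with a median log2 ratio of 0.02. By the same calls 3.85% of all named genes fell and 5.34% rose. At an unadjusted p under 0.05 in limma, 3 of the 13 were lower and 4 higher, against 18.2% and 17.4% of all named genes. The gene that rose was SLC25A32, the carrier that brings folate into the mitochondrion, at 1.07, 0.75 and 0.77 (mean 0.92 ± 0.12, adjusted p = 0.0360 in limma). With the median over its spots in place of the mean, SLC25A32 did not pass (adjusted p = 0.0536 in limma), and no gene of this list did. MTHFD1, the cytosolic counterpart of MTHFD2, chosen after its values were seen, had −0.50, −0.02 and −0.41, with an adjusted p of 0.131 in limma.

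Of 9 measured genes of the methionine cycle, transsulfuration and glutathione synthesis, 1 fell, none rose and 8 did not pass. The shares of all named genes were 3.85% lower and 5.34% higher. The median log2 ratio of the 9 was −0.02. At an unadjusted p under 0.05 in limma, 2 were lower and 1 higher, against 18.2% and 17.4% of all named genes. The gene that fell was GCLC, the catalytic subunit that starts glutathione synthesis from cysteine, at −0.61, −0.66 and −0.86 (mean −0.69 ± 0.09, adjusted p = 0.0396 in limma). With centred and scaled arrays GCLC did not pass (adjusted p = 0.0637 in limma), and no gene of this list did. CBS, the enzyme just before CTH, chosen after its values were seen, had −0.31, 0.25 and 0.07, on both sides of 0.

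Among 15 other amino acid enzymes and enzymes that refill the citric acid cycle, 3 fell, 1 rose and 11 did not pass, with a median log2 ratio of −0.12. Over all named genes 3.85% fell and 5.34% rose. Without adjustment, 7 of the 15 were lower and 3 higher at a p under 0.05 in limma. The shares of all named genes were 18.2% and 17.4%. BCAT2, the mitochondrial branched-chain aminotransferase, fell to −1.01, −0.61 and −1.01 (mean −0.91 ± 0.10, adjusted p = 0.0292 in limma), while its cytosolic relative BCAT1, given above, is the one that rose. PCK1, the cytosolic carboxykinase, had −0.95, −0.58 and −0.89 (mean −0.84 ± 0.10, adjusted p = 0.0335 in limma), lower than PCK2 on each array. GLUD1, glutamate dehydrogenase, had −0.73, −0.73 and −0.75 (mean −0.73 ± 0.08, adjusted p = 0.0315 in limma), with its 3 clones between −0.82 and −0.60.

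None of 8 other measured amino acid transporters passed in limma, against 9.19% of all named genes, and their median log2 ratio was 0.00183. The count was 1 of 8 with the Cy5 array alone for extraction 2, where 16.7% of all named genes passed. At an unadjusted p under 0.05 in limma 2 were lower and 1 higher, against 18.2% and 17.4% of all named genes. The largest means were those of SLC7A9, a carrier of cystine and basic amino acids, at −0.73, −0.07 and −0.35, and of SLC1A1, a glutamate transporter of the same family as SLC1A5, at 0.42, 0.08 and 0.48. Of 12 measured aminoacyl-tRNA synthetases and their scaffold proteins, which load amino acids onto transfer RNA, 1 fell, none rose and 11 did not pass. The shares of all named genes were 3.85% lower and 5.34% higher. The median log2 ratio of the 12 was −0.20. At an unadjusted p under 0.05 in limma, 6 were lower and none higher, against 18.2% and 17.4% of all named genes. The gene that fell was WARS1, the tryptophan enzyme, at −0.88, −0.94 and −0.92 (mean −0.90 ± 0.08, adjusted p = 0.0247 in limma).

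**Figure D4:**
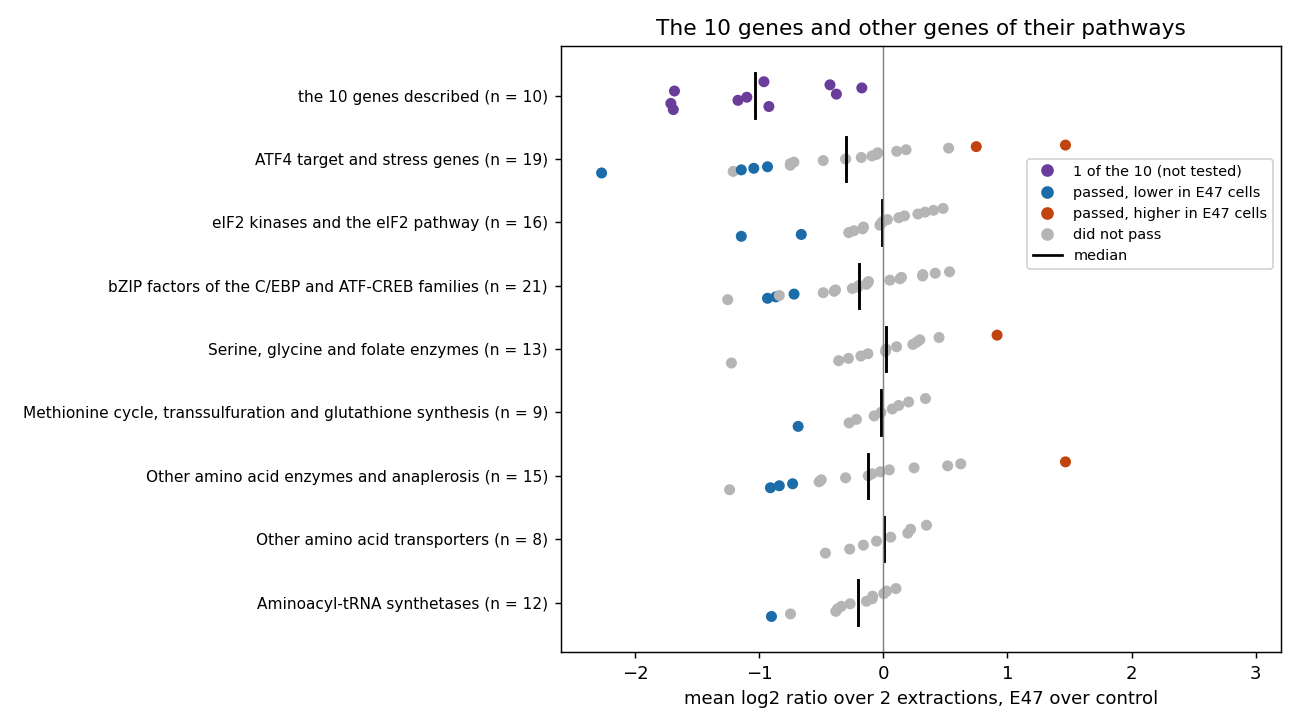
Mean log2 ratio of E47 over control over 2 extractions (horizontal axis) for the 10 genes and for the 8 lists of related genes, 1 row each. Each point is a gene, coloured by its call in the limma fit, and the black bar is the median of the row; genes in several lists appear in each. The row of the 10 genes has a median of −1.03, while the medians of the 8 lists lie between −0.30 and 0.02.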

How the data were processed

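The deposited values, 1 column per array, were used as the authors supplied them and taken as log2 ratios, although no base is stated. How the authors corrected background, normalised, took logarithms or oriented the ratio is stated neither in the labels nor in the files used here. Base 10 was set aside because the largest value, 7.80, exceeds 4.82, the log10 range of a 16-bit scanner. Column medians were −0.0051, 0.0027 and 7.67e-04. Signal intensities were not used, so no filter on dim spots was possible. A spot had to have a value on each of the 3 arrays. On each array the mean over a gene's spots was taken, and the dye swap was averaged. The resulting 5508 genes and 8500 spots without a single symbol entered the moderated test of limma 3.58.1 (lmFit, eBayes; R 4.3.3) for a mean other than 0. Its p-values were adjusted by Benjamini-Hochberg over all 14008 features, with a threshold of 0.05. With 1 residual degree of freedom, the moderated error leans on all features. Figures used matplotlib 3.10.9.

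The 10 genes and the 8 lists, as well as the 2 short lists of epithelial and mesenchymal markers, were chosen with earlier results of these data known. Genes named from a list are those that passed, up to 5 in each direction, or else the 2 with the largest mean. A table of dog gene symbols (assembly UU_Cfam_GSD_1.0) was used for names only. Promoter and protein sequences were not used here. Alternatives changed the arrays used, centring, scaling, spot handling, the features tested, robust fitting, a dye term and the threshold. The fit with a dye term took each array as a separate sample, although both arrays of the dye swap hold the same RNA. Its calls therefore do not rest on n = 2 extractions.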

Additional observations from a re-analysis of the deposited data

How the results depend on the processing

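All 10 genes stayed below 0 in each of 80 values from 8 alternatives (either array of the dye swap alone, either extraction alone, centring, scaling, median over spots, and all spots with a value). The median of the 10 ran from −1.14 without replicate 1 to −0.99 without replicate 2, and lay between these under the other 6. Read as natural logarithms, its fold would be 2.81 rather than 2.04. The number of the 10 with an adjusted p under 0.05 was 7, with 4 from the Cy3 array alone for extraction 2 and 6 with scaled arrays. The count over the 106 other pathway genes was 15; it was 1 with that Cy3 array alone, 26 with the Cy5 array alone, 35 at an adjusted p under 0.10 and 34 when named genes alone were tested. Over all named genes the count was 506, and under the same alternatives it was 109, 919, 1244 and 1175. Testing named genes alone changes the number of features adjusted over and the prior. At an adjusted p under 0.10 the fit was the same and only the threshold was looser. For the other changes the cause was not tested. The 15 calls lost 14 members with the Cy3 array alone, 1 with robust eBayes, 2 each with the Cy5 array alone, a dye term, centring, scaling and the median over spots, and none with all spots kept, and no gene changed sign. Without either extraction no residual degree of freedom was left, so no call was possible. Extraction as a random block gave no estimate, since the correlation could not be computed from 3 arrays. No paired analysis was possible because there is 1 group, with the control on every array. Signal over background is unknown, which limits the reading of small ratios.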

Other observations

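Several genes next to the 10 had ratios that differed between arrays or clones, and were chosen after their values were seen. TYMS, thymidylate synthase, which uses folate-bound carbon to make thymidylate, had log2 ratios of −1.73 in extraction 1, 0.07 in the Cy3 array of extraction 2 and −1.52 in its Cy5 array. Its clones were at −1.85 and 0.03, and it did not pass the limma test, with an adjusted p of 0.0849. ASS1, argininosuccinate synthase, which makes the precursor of arginine, had −2.04, −0.01 and −0.87 from 1 spot, with an adjusted p of 0.150 in limma. HMOX1, heme oxygenase, had −1.70, −0.49 and −0.96, with clones at −2.31 and −0.11 and an adjusted p of 0.0827 in limma. Over all spots the SD of the log2 ratio was 0.623, 0.430 and 0.535 on the 3 arrays. In TYMS, ASS1 and HMOX1 the Cy3 array was the closest to 0. The same held for the gene means of CEBPG, ASNS, PSAT1, CTH, PCK2, SHMT2 and SLC1A4 among the 10 genes. At single sites it did not always hold. Site 3 of CEBPG had −1.06 in extraction 1 against −1.20 in Cy3. Site 1 of PCK2 had −0.10 in the Cy5 array of extraction 2 against −0.27 in Cy3. For CTH the Cy3 value of −1.04 was close to the −1.05 of extraction 1. In ATF4, MTHFD2 and SLC1A5 the Cy3 array held the lowest of the 3 values. For MTHFD2 and ATF4 the Cy3 and Cy5 values of the dye swap differed by only 0.0041 and 0.023. The part of the dye in these values was not tested.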
